A study of Mus musculus with 6 samples.

Results

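Matricellular proteins are secreted into the extracellular matrix, where they act on cells more than they build fibres. The genes described here are 9, chosen by name: Postn, Tnc, Thbs1, Thbs2, Sparc, Spp1, Fn1, Ccn1 and Ccn2. The probe set with the highest mean over all 6 arrays stands for a gene, but each gene found had only 1 probe set with a single gene name. Of the 9 genes, 8 were found among the 19936 genes measured, and Spp1, the gene of osteopontin, was not analysed here. Measured values entered through the choice of names, which were gathered with earlier results of these data known, among them the changes of Postn and Ccn2, so counts over the 8 genes are a description.

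RNA came from a Tet-off line derived from mouse embryonic fibroblasts, where transgenes answer to a transactivator that tetracycline switches off. The 3 control samples were of the untransfected line. The 3 HA-Fbxl10 samples were of cells of that line that had received a plasmid with HA-tagged Fbxl10 cDNA and a second one for hygromycin resistance, from clones picked for HA-Fbxl10 expression. The number of clones behind these samples is not given, and no empty-vector group was among the samples, so effects of Fbxl10, of transfection and of clone selection cannot be told apart. Nothing says that the samples of a group were separate cultures, so the p-values rest on a spread between samples that could be technical. In bulk RNA, fewer expressing cells and less RNA per cell cannot be told apart.

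Periostin (Postn) and tenascin-C (Tnc) appear in wounds, developing connective tissue and tumour stroma. Thrombospondins bind matrix proteins, growth factors and cell receptors, and SPARC binds collagen. Fibronectin (Fn1) is a structural glycoprotein often treated with this group, and the CCN proteins CCN1 (CYR61) and CCN2 (CTGF) are cysteine-rich signalling proteins. Their genes are classical targets of the YAP and TEAD transcription regulators. Fbxl10, now named Kdm2b, is a histone demethylase whose zinc finger binds unmethylated CpG dinucleotides. For that reason the promoter letters of 4 of the 5 matricellular genes that differed between the groups are shown with each CpG in capitals. They are the 250 bases before the start in RefSeq (build GRCm38.p6), 5′ to 3′ on the gene's strand: chr3:145649986-145650235 (minus strand) for Ccn1, chr4:64047016-64047265 (minus strand) for Tnc, chr3:54360857-54361106 (plus strand) for Postn and chr17:14694263-14694512 (minus strand) for Thbs2.
Ccn1: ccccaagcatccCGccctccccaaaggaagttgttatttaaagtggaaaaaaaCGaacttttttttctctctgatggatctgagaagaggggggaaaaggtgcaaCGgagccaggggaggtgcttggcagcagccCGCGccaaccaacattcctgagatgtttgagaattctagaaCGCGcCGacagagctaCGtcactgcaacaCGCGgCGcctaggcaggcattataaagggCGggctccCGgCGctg
Tnc: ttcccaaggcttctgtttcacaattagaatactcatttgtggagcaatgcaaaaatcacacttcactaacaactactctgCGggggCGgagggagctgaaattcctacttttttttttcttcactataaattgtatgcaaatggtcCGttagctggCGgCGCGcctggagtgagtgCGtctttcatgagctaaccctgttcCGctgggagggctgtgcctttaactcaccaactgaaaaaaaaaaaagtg
Postn: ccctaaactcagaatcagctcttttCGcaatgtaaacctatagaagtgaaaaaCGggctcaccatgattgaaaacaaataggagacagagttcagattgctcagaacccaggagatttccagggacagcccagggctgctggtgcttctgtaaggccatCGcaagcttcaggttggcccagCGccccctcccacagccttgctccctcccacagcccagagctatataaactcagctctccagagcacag
Thbs2: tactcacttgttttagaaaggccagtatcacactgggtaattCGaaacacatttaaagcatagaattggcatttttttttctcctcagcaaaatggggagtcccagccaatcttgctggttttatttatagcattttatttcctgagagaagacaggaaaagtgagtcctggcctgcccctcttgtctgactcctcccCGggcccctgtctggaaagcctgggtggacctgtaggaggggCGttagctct
Ccn1 and Tnc, which were higher in HA-Fbxl10 cells, hold 15 and 8 CpGs in these windows. Postn and Thbs2, which were lower, hold 4 and 3. The median over 32851 windows is 6. RefSeq lists another start for Tnc and for Postn, with 10 and 3 CpGs before it. Sparc, for which limma called no difference, holds 4 CpGs, and the table has no window for Thbs1, Fn1 or Ccn2.

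The windows were searched on both strands for the TATA box core TATAA, for the GC box written GGGCGG, for the TEAD motif GGAATG and for the AP-1 motif TGANTCA, and also for the CArG box of serum response factor. Among all windows 22.8%, 32.7%, 12.6%, 6.7% and 1.5% hold them, and GGGCGG always includes a CpG. Counted from the base just before the start as 1, the TATAA of Ccn1 begins at base 25 and that of Postn at base 26. Ccn1 has a copy of GGGCGG at base 19, a reverse copy at 239 and the TEAD motif read from the other strand at base 103. The Tnc window, that of the outer of its 2 starts, has TATAA at base 126 and GGGCGG at 167, and that of Thbs2 a reverse TATAA at 125. Before the inner start of Tnc a TATAA begins at base 27, and before the outer start of Postn, whose inner one is shown, there is none. The inner window of Tnc is not printed because it holds the outer start. None of these 4 windows holds TGANTCA or a CArG box.

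Values are log2 expression per probe set as the authors normalised them, and differences are HA-Fbxl10 minus control from a limma fit over all 19936 genes with Benjamini-Hochberg adjustment. A gene is said to have risen or fallen where its adjusted p lay under 0.05. Levels of different probe sets are not compared with each other, beyond placing a gene against the median or lower quartile of all genes. Kdm2b itself was at 7.38, 7.45 and 7.28 in the control arrays and at 9.77, 9.75 and 9.58 in the HA-Fbxl10 arrays. Array medians ran from 4.69 to 4.79, and each pair of arrays correlated at 0.9903 to 0.9959 over all probe sets. No 2 arrays were copies: between 33 and 73 of 35556 probe sets had equal values in a pair. With 3 arrays a group, precision is limited throughout. Of the fibroblast markers, 10 of 14 lay above the median level of all genes (5.36), among them Vim, Pdgfra and Pdgfrb, while Lum and Fap lay under the lower quartile (3.75).

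Of the 8 matricellular genes measured, Tnc, Ccn1 and Ccn2 rose, Postn and Thbs2 fell, and Thbs1, Sparc and Fn1 did not pass the test. The share called was 62.5%, beside 21.1% of all genes (10.5% higher and 10.6% lower) and 37.0% of genes above the median level, where all 8 lie. The median difference of the 8 was 0.17, and that of all genes was -0.0043. The arrays of the 2 groups did not overlap for 7 of the 8, all but Fn1, while 36.0% of all genes had no overlap.

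**Figure D1:**
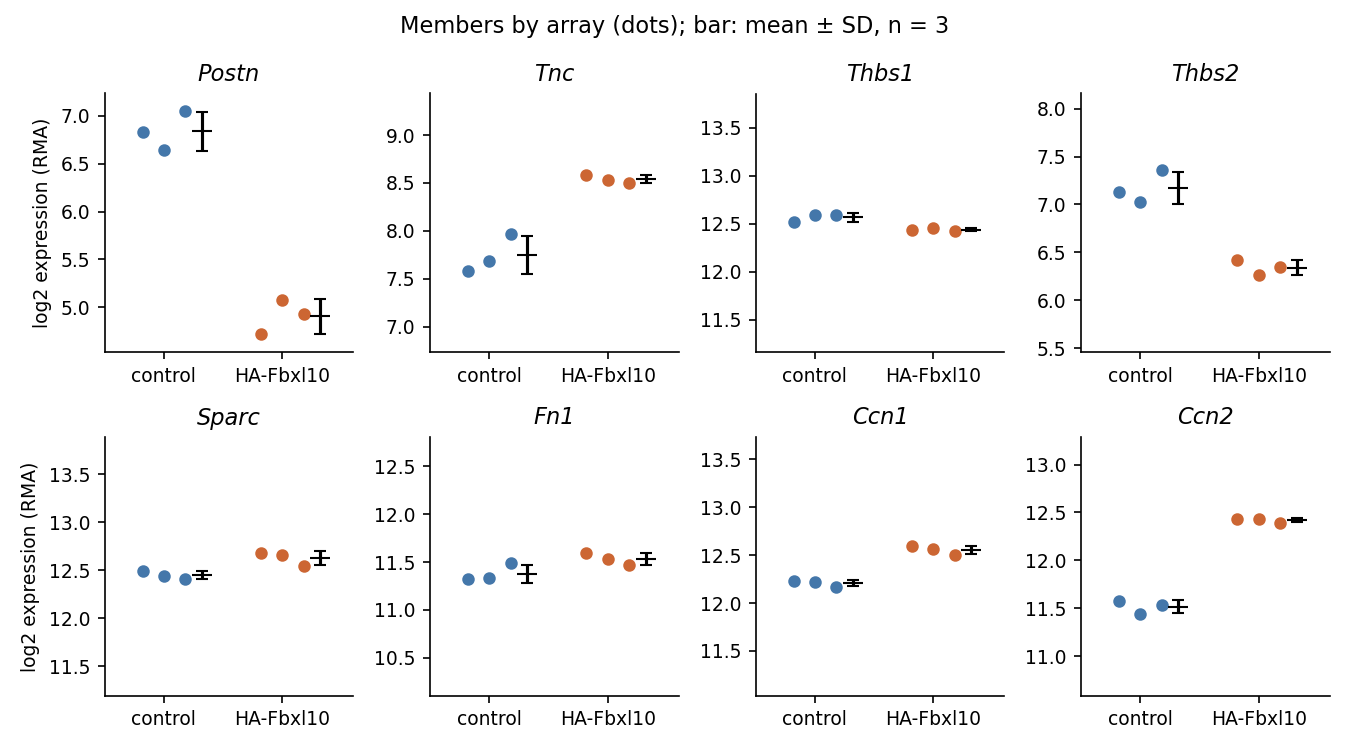
Log2 expression (vertical axis, RMA values, 2.7 log2 units in each panel) of the 8 matricellular genes in the 3 control (blue) and 3 HA-Fbxl10 (orange) arrays, with mean and SD as bars (n = 3). Postn and Thbs2 sit lower and Tnc, Ccn1 and Ccn2 higher in every HA-Fbxl10 array, and only the groups of Fn1 overlap.

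Postn fell most. It encodes periostin, a fasciclin-domain protein that binds collagen, tenascin-C and integrins and helps collagen crosslinking. Its level was 6.83, 6.64 and 7.05 in control arrays and 4.72, 5.07 and 4.93 in HA-Fbxl10 arrays. The lowest control array thus stood 1.57 above the highest HA-Fbxl10 array. The difference was -1.93 ± 0.12 (SE, limma adjusted p = 9.91e-06), a 3.82-fold lower level, and it ranked 31 of 19936 genes by size. The HA-Fbxl10 mean, 4.91 ± 0.18 (SD, n = 3), lay under the median of all genes (5.36) though above the lower quartile (3.75). Low RMA values are compressed, so the fold may be understated. Tgfbi, whose product is the close relative of periostin with the same domains, fell too. It went from 7.44, 7.16 and 7.39 to 6.01, 5.79 and 6.04, which is -1.38 ± 0.10 (SE; adjusted p = 2.07e-05 in limma).

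Tnc rose. Tenascin-C is a large hexameric glycoprotein that modulates adhesion to fibronectin. Its level was 7.58, 7.69 and 7.96 in control arrays and 8.59, 8.53 and 8.50 in HA-Fbxl10 arrays. The control arrays spread over 0.38 and the HA-Fbxl10 arrays over 0.08. The difference was 0.80 ± 0.10 (SE, limma adjusted p = 0.00045), a 1.74-fold higher level. Without control replicate 3, the highest of the controls, it was 0.91. The other tenascin genes Tnn (-0.08), Tnr (-0.05) and Tnxb (0.24) were not called, and their means in both groups lay under the median of all genes.

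The thrombospondin genes differed in the size of their change, and none of them rose. Thbs2, an inhibitor of blood vessel growth that also affects collagen fibres, was at 7.13, 7.03 and 7.36 in control arrays and at 6.42, 6.26 and 6.35 in HA-Fbxl10 arrays. All HA-Fbxl10 arrays lay at least 0.61 under every control array. The difference was -0.83 ± 0.09 (SE, limma adjusted p = 0.000261), a 1.78-fold lower level. Thbs1, which encodes an activator of latent TGF-beta, was at 12.51, 12.59 and 12.59 in control arrays and at 12.44, 12.46 and 12.43 in HA-Fbxl10 arrays. Its groups did not overlap, but they were only 0.06 apart, and the difference of -0.13 ± 0.06 (SE) did not pass (limma adjusted p = 0.197, 95% interval -0.26 to 0.01). With a variance trend in limma it passed (adjusted p = 0.00728). Thbs3, which encodes a pentameric thrombospondin, fell from 7.50, 7.42 and 7.63 to 6.45, 6.36 and 6.31. Its difference was -1.14 ± 0.07 (SE, limma adjusted p = 1.47e-05). Thbs4 (0.05) and Comp (-0.0028) were not called, and both groups' means of each lay under that median too.

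The difference between the changes of Thbs1 and Thbs2 was looked at within arrays. Thbs1 minus Thbs2 was 5.38, 5.56 and 5.24 in control arrays and 6.02, 6.20 and 6.08 in HA-Fbxl10 arrays, 0.70 apart on average. The groups did not overlap, and the exact two-sided permutation test gave p = 0.1, the smallest that 3 against 3 arrays allow. That test cannot reach 0.05. It was run on 2 gene pairs, this one and the CCN pair below, and the Benjamini-Hochberg adjusted p was also 0.1 for both.

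Ccn2 and Ccn1 rose, Ccn2 by more. Ccn2 was at 11.57, 11.44 and 11.54 in control arrays and at 12.44, 12.43 and 12.39 in HA-Fbxl10 arrays. The HA-Fbxl10 arrays lay within 0.04 of each other and 0.82 above the highest control. The difference was 0.90 ± 0.06 (SE, limma adjusted p = 2.29e-05), a 1.87-fold higher level. Ccn1 was at 12.23, 12.22 and 12.17 in control arrays and at 12.59, 12.56 and 12.51 in HA-Fbxl10 arrays. The gap between its groups was 0.28. Its difference was 0.35 ± 0.06 (SE, limma adjusted p = 0.00348), a 1.27-fold higher level. Within arrays, Ccn2 minus Ccn1 was -0.66, -0.78 and -0.63 in controls and -0.16, -0.13 and -0.11 in HA-Fbxl10 arrays. In these log2 values the change of Ccn2 thus exceeded that of Ccn1 by 0.56, with no overlap and an exact permutation p = 0.1. Whether the probe sets of a pair respond alike at their levels was not tested, here or for Thbs1 and Thbs2.

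The rest of the CCN family went both ways. Ccn3, which encodes a growth-restraining relative, rose from 10.64, 10.35 and 10.52 to 10.94, 10.84 and 10.81. Its difference was 0.36 ± 0.08 (SE, limma adjusted p = 0.0141), and the call ended without HA-Fbxl10 replicate 1 (adjusted p = 0.0591). Ccn5, whose protein lacks the C-terminal domain of the others, fell from 10.20, 10.40 and 10.23 to 9.90, 9.82 and 9.90. Its difference was -0.40 ± 0.07 (SE, limma adjusted p = 0.00384). Ccn4 (-0.06) and Ccn6 (0.06) were not called. In sum, 3 of 6 CCN genes rose and 1 fell. That stands beside 21.1% of all genes called and 37.0% of genes above the median level. Ccn1 and Ccn2 are among the 3 and were chosen with earlier results known, so the count is a description.

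Sparc and Fn1 differed little. Sparc, which encodes a collagen-binding protein of remodelling tissue, was at 12.49, 12.44 and 12.41 in control arrays and at 12.68, 12.66 and 12.55 in HA-Fbxl10 arrays. The groups stood 0.06 apart without overlap. The difference was 0.18 ± 0.07 (SE, 95% interval 0.03 to 0.33) and missed the threshold (limma adjusted p = 0.0842). It passed with quantile normalisation (adjusted p = 0.049), with array medians subtracted (0.0485), with a variance trend (0.00175) and with the local shift of neighbouring genes removed (0.0148). Fn1 was at 11.32, 11.33 and 11.49 in control arrays and at 11.59, 11.54 and 11.47 in HA-Fbxl10 arrays. Control replicate 3 lay above HA-Fbxl10 replicate 3, and the difference of 0.15 ± 0.07 (SE, 95% interval -0.01 to 0.31) did not pass (limma adjusted p = 0.195). With a variance trend it passed (adjusted p = 0.0306). Among the relatives of Sparc, Smoc2 rose from 7.19, 7.06 and 7.32 to 8.58, 8.56 and 8.38, which is 1.31 ± 0.09 (SE; adjusted p = 1.57e-05 in limma). Its product is a calcium-binding matrix protein. Fstl1 rose by 0.28 (limma adjusted p = 0.0423), or by 0.47 with the local shift removed. Its call ended in 7 settings, among them without control replicate 2 or 3 and without HA-Fbxl10 replicate 1 or 2 (adjusted p up to 0.136). Sparcl1 (-0.34, adjusted p = 0.0772), Smoc1 (0.01), Spock1 (-0.09), Spock2 (-0.0071) and Spock3 (-0.07) were not called.

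**Figure D2:**
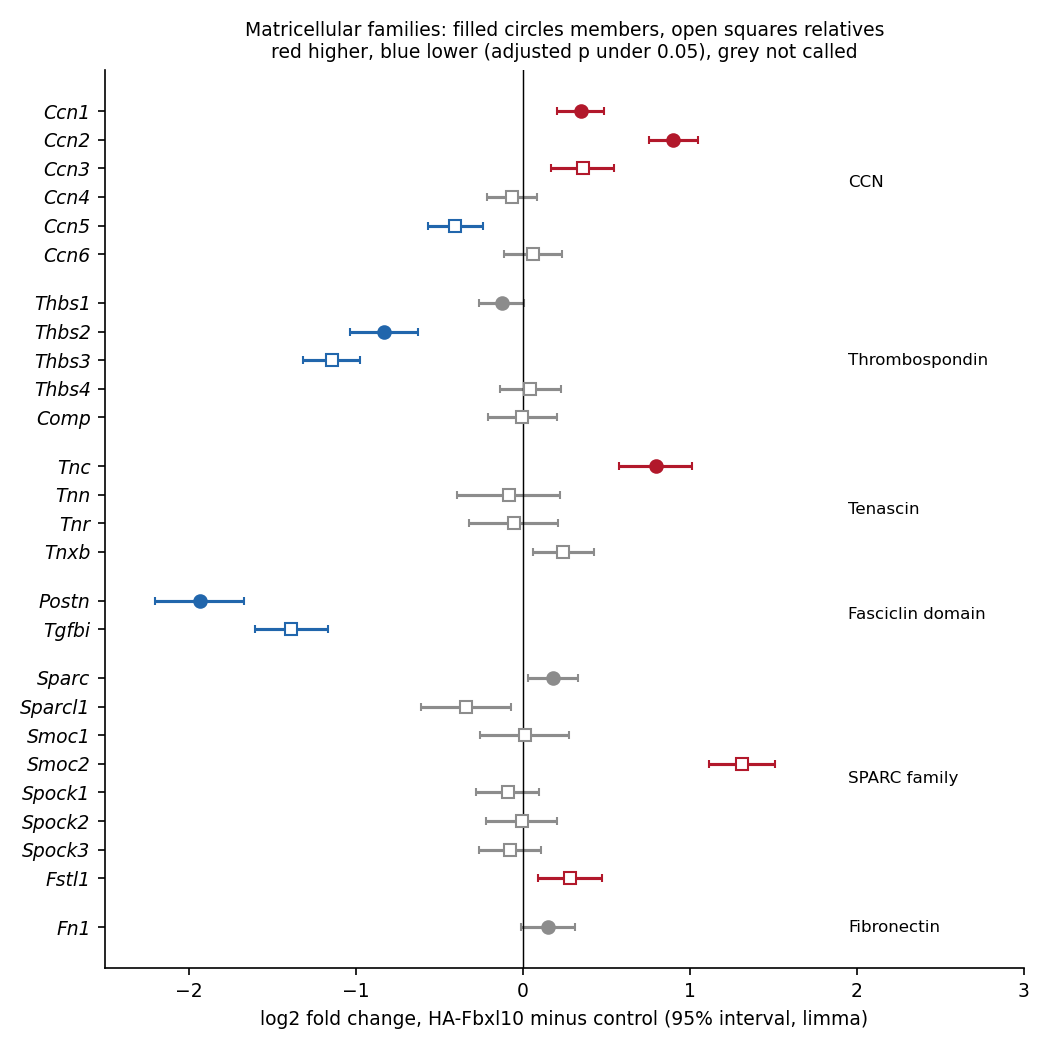
Log2 fold change (horizontal axis, HA-Fbxl10 minus control, with 95% intervals from limma) of the 8 matricellular genes (filled circles) and relatives (open squares), by family. Each family of more than 2 genes holds genes that were called and genes that were not. The 2 genes of fasciclin-domain proteins shown here, Postn (-1.93) and Tgfbi (-1.38), were lower.

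Control replicate 3 was the highest control array for 5 of the 8 genes (Postn, Tnc, Thbs1, Thbs2 and Fn1) and the lowest for Sparc and Ccn1. HA-Fbxl10 replicate 3 was the lowest of its group for 6 genes. The SD among control arrays was 0.20 for Postn, 0.20 for Tnc and 0.17 for Thbs2, and 0.03 to 0.09 for the other 5. Leaving out any 1 array kept all 5 calls, and Thbs1, Sparc and Fn1 stayed uncalled. Without control replicate 3 the differences were -1.83 for Postn, -0.74 for Thbs2 and 0.21 for Fn1.

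The chromosomal surroundings were compared, since many neighbouring genes moved together. Postn and Ccn1 both lie on chromosome 3, whose 471 genes above the median level had a median difference of -0.23. Around Postn, the nearest 30 such genes had a median of -0.30, with 21 lower and 1 higher, and none of them fell as far (lowest -0.89). Its nearest measured neighbours of that kind, Ufm1 and Supt20, stood at -0.09 and -0.37. Around Ccn1 the median was -0.24, with 14 lower and 1 higher, so Ccn1 rose where many genes fell. The higher one, Unc5c (0.42), rose by more than Ccn1 did (0.35). Znhit6 and Ddah1, the genes beside Ccn1, stood at -0.39 and -0.04. With a running median of 31 neighbouring genes removed, the difference of Ccn1 went from 0.35 to 0.58 and that of Postn from -1.93 to -1.61. The part of such regional shifts in the 2 values was not tested otherwise.

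Ccn2 on chromosome 10 had neighbours with a median of -0.10, and the genes beside it, Stx7 (-0.05) and Med23 (-0.13), were not called. Its difference was 1.00 once the local shift was removed. Thbs2 on chromosome 17 lay in a stretch with a median of 0.16, with 9 of 30 genes higher and 1 lower. The gene beside it among those above the median level is Smoc2, singled out after its value was seen. Smoc2 rose by 1.31 on the log2 scale, and Thbs2 fell by 0.83. For Tnc the neighbours' median was -0.03, for Thbs1 0.08, for Sparc -0.13 and for Fn1 0.04.

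**Figure D3:**
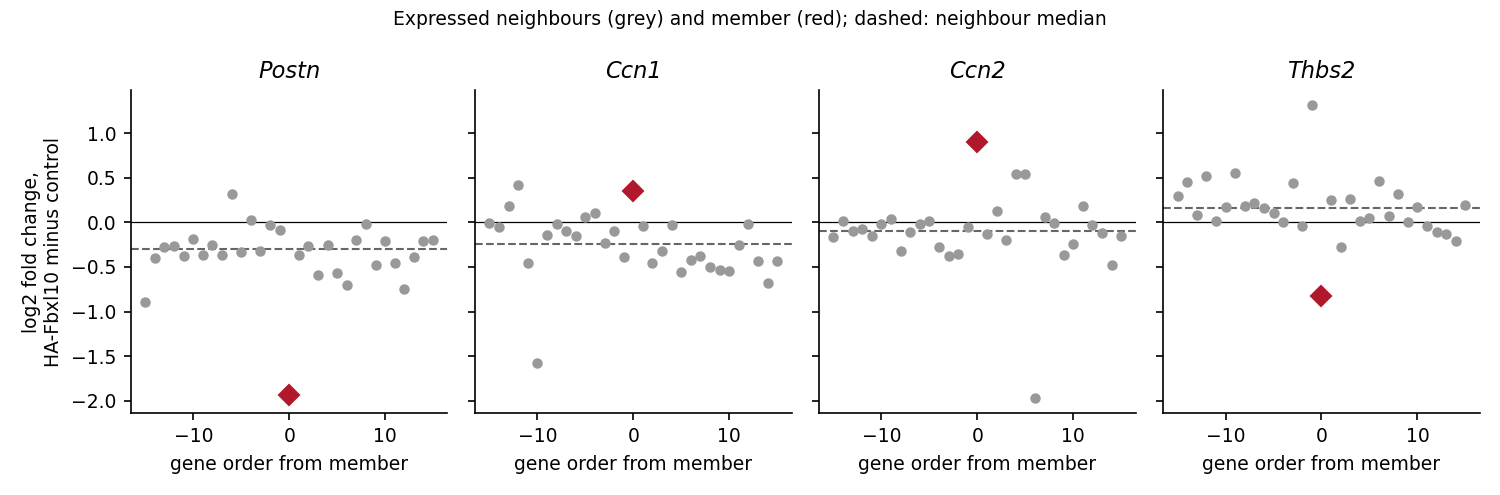
Log2 fold change (vertical axis, HA-Fbxl10 minus control) of Postn, Ccn1, Ccn2 and Thbs2 (red diamonds) and of up to 15 neighbouring genes above the median level on each side (grey), by gene order (horizontal axis). Dashed lines give the neighbour medians of -0.30, -0.24, -0.10 and 0.16, and each red diamond lies well away from its line.

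Other matricellular genes formed a list of 30, of which 29 were measured. In it 5 rose, 4 fell and 20 did not pass (median -0.0071), beside 21.1% of all genes called. Only 11 of the 29 lay above the median level, where 37.0% of genes were called. All called genes of the list except Edil3 were among these 11. With quantile normalisation 4 rose and 5 fell, and without HA-Fbxl10 replicate 1 only 7 were called, with 3 higher and 4 lower. The largest change of the list, ahead of Tgfbi and Smoc2, was in Edil3, which encodes an integrin ligand of vessels. Edil3 fell from 5.22, 4.89 and 5.26 to 3.10, 3.26 and 3.42. The HA-Fbxl10 levels lay under the lower quartile of all genes, so the size of this fall is uncertain. The elastic-fibre gene Fbln5 rose by 0.56 and Mfge8, which encodes an integrin-binding bridging protein, by 0.38. Of the genes of the osteopontin group, Ibsp, Dmp1, Dspp and Mepe were not called, with mean levels under the median of all genes.

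Receptors of matricellular proteins formed the next list. Of 26 measured, 3 rose, 3 fell and 20 did not pass (23.1% called, near the 21.1% of all genes). Of the 26, 16 lay above the median level, where 37.0% of genes were called. Cd47, a receptor of thrombospondins, fell from 9.30, 9.40 and 9.39 to 8.62, 8.61 and 8.70, which is -0.72 ± 0.06 (SE; adjusted p = 8.48e-05 in limma), or -0.43 with the local shift removed. The syndecan gene Sdc4, whose product is a co-receptor for fibronectin, fell by 0.44. Itgb3, the beta subunit of a receptor for periostin and osteopontin, fell from 5.20, 5.30 and 5.66 to 4.71, 4.91 and 4.67. The groups did not overlap (difference -0.62 ± 0.12 (SE), limma adjusted p = 0.00494). Itgb5, which encodes another partner of the alpha-v subunit, rose by 0.44, Sdc1 rose by 0.41 and Itgb1 by 0.25. With the local shift removed Itgb5 and Sdc1 kept their calls at 0.27 each. The call of Itgb1 ended in that setting (adjusted p = 1.0), under a replicate block, and without control replicate 1 or either of HA-Fbxl10 replicates 1 and 2. The alpha-v gene Itgav (0.12), the osteopontin receptor gene Cd44 (0.20) and the thrombospondin and CCN2 receptor gene Lrp1 (-0.26) were not called.

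Target genes of YAP, TEAD and serum response factor other than Ccn1 and Ccn2 numbered 31, of which 30 were measured. Of these 10 rose, 6 fell and 14 did not pass (53.3% called, median 0.07), and 29 lay above the median level, where 37.0% of genes were called. Crim1, which encodes a membrane protein with cysteine-rich repeats, rose from 9.44, 9.51 and 9.63 to 10.52, 10.56 and 10.60. Tgfb2, a TGF-beta ligand gene, rose by 0.96, and Egr1, an immediate early transcription factor gene, fell by 0.88. Nt5e (0.68), Lats2 (0.56) and Ajuba (0.47) also rose, and Actg2 (-0.47), F3 (-0.44) and Myl9 (-0.43) fell. The call of Actg2 ended with the local shift removed (limma adjusted p = 0.364). Ankrd1, often read with the CCN genes as a YAP target, went the other way from them, with a difference of -0.24 ± 0.07 (SE, limma adjusted p = 0.027). Its call ended with array medians subtracted, with the replicate number as a block, with the local shift removed, and when control replicate 1 or 2, or replicate 1 or 3 of HA-Fbxl10, was left out (adjusted p up to 0.15). Without control replicate 1 or without HA-Fbxl10 replicate 1 the list's count dropped to 10, with 6 higher and 4 lower. Without HA-Fbxl10 replicate 2 it was 11, with 6 higher and 5 lower, and with array medians subtracted 11 rose and 4 fell. Removing the local shift left 11 calls in the list, 7 higher and 4 lower.

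In the list of TGF-beta response genes 4 of 28 rose, 8 fell and 16 did not pass (42.9% called, median -0.04). That share is near the background, since 25 of the 28 lay above the median level, where 37.0% of genes were called. The split moved with the scaling, to 6 higher and 5 lower with array medians subtracted. Without control replicate 2 or HA-Fbxl10 replicate 1 the list had 8 calls, 4 in each direction, and without control replicate 3 or HA-Fbxl10 replicate 3 it had 9, 4 higher and 5 lower. The cell cycle inhibitor gene Cdkn2b fell by 0.91, the fibrillar collagen gene Col3a1 by 0.79 and Id3, which encodes an inhibitor of helix-loop-helix factors, by 0.69. Col1a1 (-0.16) and Col1a2 (-0.08) were not called. Among the ligand genes, Tgfb3 rose by 0.51 and Tgfb1 fell by 0.36.

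Genes that crosslink, modify and cut matrix proteins held the largest share of calls of the 5 lists. Of 30 measured, 15 rose, 7 fell and 8 did not pass (73.3% called, median 0.22), beside 21.1% of all genes called. Of the 30, 27 lay above the median level, where 37.0% of genes were called. The tolloid-like protease gene Tll1 rose from 6.02, 5.77 and 5.98 to 8.13, 8.32 and 8.25. Fam20c, the kinase gene whose product phosphorylates osteopontin and other secreted proteins, rose from 7.09, 6.95 and 7.18 to 8.23, 8.40 and 8.37. Mmp9, a gelatinase gene, fell from 6.58, 6.56 and 6.75 to 5.33, 5.23 and 5.06. Plat (-1.04) fell, while the amine oxidase gene Loxl1 rose by 0.88 and the lysyl hydroxylase gene Plod3 by 0.75. Mmp13 (-0.63, with both means under the median of all genes) and Loxl3 (-0.57) fell as well. The call of Loxl3 ended with the local shift removed (limma adjusted p = 0.0599). Without control replicate 1 or HA-Fbxl10 replicate 1 or 3 this list had 15 calls, with 9 higher and 6 lower, and without replicate 2 of either group it had 16, with 9 higher and 7 lower. Over all genes 2097 rose and 2111 fell, and with array medians subtracted 2650 rose and 1560 fell.

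**Figure D4:**
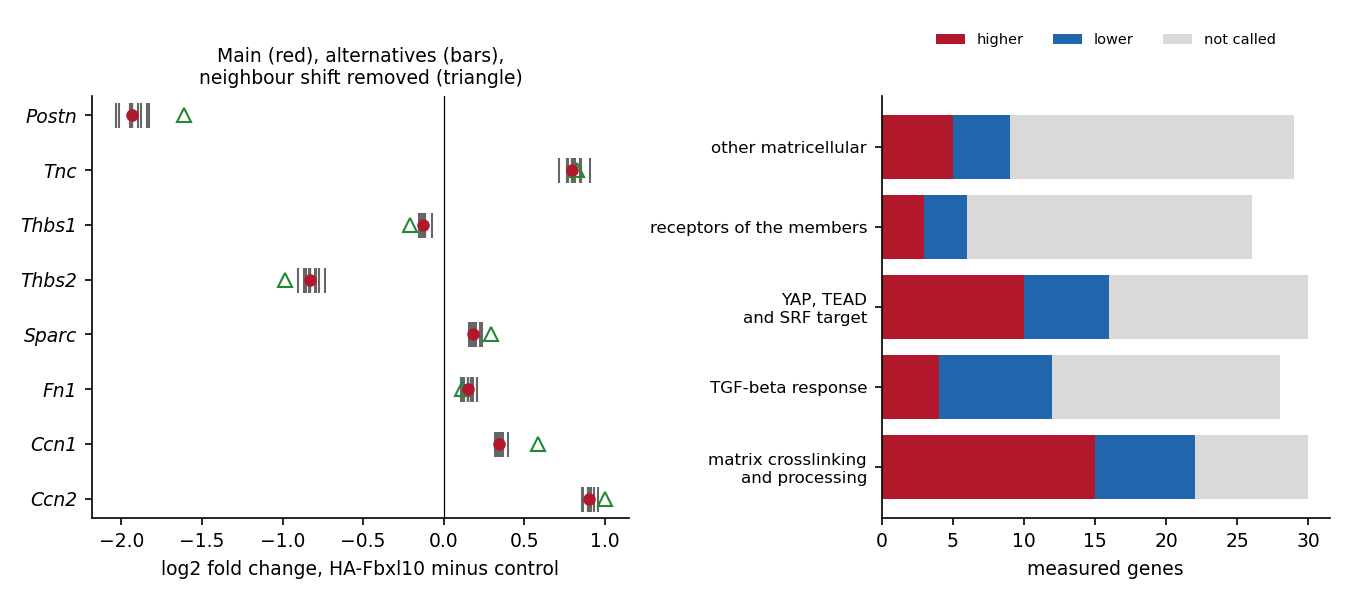
Left, log2 fold change (horizontal axis) of each matricellular gene as reported in the text (red), under the other settings (grey bars) and with the local shift removed (green triangles). Right, measured genes of 5 related lists (horizontal axis, number of genes) that rose, fell or were not called. The 5 called genes stay on their side of 0 in every setting tried, and the crosslinking and processing list holds 22 called genes of 30.

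Profiles most like those of Postn and Ccn2 were sought among genes above the median level, by the root mean square difference of mean-centred values over the 6 arrays. For Postn the closest were Car13 (0.12), Ccl7 (0.13) and Lama2 (0.17). For Ccn2 they were Zfp367 (0.04), Loxl1 (0.04) and Clptm1l (0.05). These 6 arrays share 1 contrast, so likeness here is mostly a like difference between the groups.

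Markers of other cell types were read beside these genes. Of all genes 21.1% were called, and of the macrophage, endothelial and bone markers 6.67%, 8.33% and 11.1%. Of 15 macrophage markers 2 lay above the median level and 7 under the lower quartile. Their summed log2 levels were 58.7 to 59.0 in control and 58.0 to 58.9 in HA-Fbxl10 arrays, and 1, Cd14 (-0.45), was called, a call that ended when replicate 1 or 3 of a group was left out (adjusted p up to 0.119). Of 12 epithelial markers 0 passed in limma (1 had an unadjusted p under 0.05), with 2 above the median level and sums of 52.8 to 53.9 in control and 52.2 to 53.7 in HA-Fbxl10 arrays. Of 12 endothelial markers limma called Kdr (0.51), with sums of 51.1 to 52.0 and 50.9 to 52.4. Among 12 smooth muscle markers 3 rose and 2 fell, with 5 above the median level and sums of 66.8 to 68.6 and 67.4 to 68.7 (41.7% called, beside 21.1% of all genes). Mylk (0.38) and Lmod1 (-0.34) both lost their calls without control replicate 2 or 3 or without HA-Fbxl10 replicate 3, which left 2 higher and 1 lower (limma adjusted p up to 0.118 for Mylk and 0.116 for Lmod1 over all alternatives). Among 9 bone markers Mmp16 (-0.32) fell, a call lost once control replicate 3, or replicate 1 or 3 of the other group, was left out (adjusted p up to 0.0927), with 3 of the 9 above the median level and sums of 44.0 to 44.5 in control and 43.1 to 43.6 in HA-Fbxl10 arrays. Among the 14 fibroblast markers S100a4 (-0.64), Prrx1 (-0.49), Col6a1 (-0.44) and Pdgfra (-0.30) fell and 0 rose, with 0 higher at an unadjusted p under 0.05. The share called was 28.6%, beside 21.1% of all genes and 37.0% of genes above the median level, where 10 of the 14 lie. Leaving out control replicate 1 or 3, or replicate 1 or 2 of HA-Fbxl10, ended the call of Pdgfra (adjusted p up to 0.0977). With the local shift removed S100a4 stood at -0.31 and Col6a1 at -0.27. The summed log2 levels of the 14 markers were 114.3 to 114.6 in control and 111.9 to 112.4 in HA-Fbxl10 arrays. The median difference was -0.08 for the fibroblast markers and -0.01 for the bone markers. With array medians subtracted 3 fibroblast and 0 bone markers were called, and the sums were not adjusted for array medians. The part of the lower fibroblast and bone marker sums in the falls of Postn and Thbs2 was not tested.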

How the data were processed

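Total RNA of 6 samples was hybridised to Affymetrix arrays (300 ng per array, biotin label, per the labels' protocols). The authors deposited log2 values, 1 per probe set and array, and used RMA according to the submitters' processing notes, with no version or settings stated there. RMA makes the arrays' distributions alike, though the deposited values keep small differences (array medians of 4.69 to 4.79), so a shift of most genes together is largely removed. Without scan dates, batches could not be compared.

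The platform annotation pairs 21789 of 35556 probe sets with 1 gene and 1621 with several, and 12146 are unnamed here. Symbols were updated through RefSeq (GRCm38.p6): 21698 by Entrez identifier, 3 by accession, and 88 kept theirs. No build is stated for the values, so only gene order was taken from it. Per gene the probe set with the highest mean was used, with no filter on dim genes.

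The test was limma's (version 3.58.1, R 4.3.3, lmFit and eBayes, two-sided), adjusted over 19936 genes with a threshold of 0.05 and tested on simulated data. Gene pairs used scipy 1.17.1, and figures matplotlib 3.10.9. All genes and lists were chosen with earlier results of these data known. The rule for named genes took Kdm2b, the 9 matricellular genes, the 3 largest called changes of each list, the 3 profiles most like Postn and Ccn2, and the nearest neighbours of Postn, Ccn1 and Ccn2. Other genes were named after their values were seen. Alternatives were quantile normalisation, subtracted array medians, no genes of the dimmest 30%, averaged probe sets, variance trends, array weights, a replicate block, each array left out, a neighbour shift removed and an adjusted p of 0.01.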

Additional observations from a re-analysis of the deposited data

How the results depend on the processing

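Of the 8 matricellular genes, the 5 called ones kept direction and call in all 16 alternatives each. Their ranges were -2.03 to -1.61 for Postn, 0.71 to 0.91 for Tnc, -0.99 to -0.74 for Thbs2, 0.32 to 0.58 for Ccn1 and 0.86 to 1.00 for Ccn2. With a limma variance trend, with or without robust estimation, all 8 were called, 5 higher and 3 lower. Then Thbs1 passed at -0.13 (adjusted p = 0.00728, robust 0.00702), Sparc at 0.18 (0.00175, robust 0.00165) and Fn1 at 0.15 (0.0306, robust 0.0296). The adjusted p over all alternatives ran from 0.00702 to 0.581 for Thbs1, from 0.00165 to 0.227 for Sparc and from 0.0296 to 0.416 for Fn1. Sparc also passed with quantile normalisation (0.19), subtracted array medians (0.24) and the neighbour shift removed (0.30). The cause was not tested. An adjusted p of 0.01 left 9 calls in the YAP, TEAD and SRF list, 6 in the TGF-beta list, 12 in the crosslinking list and 2536 over all genes. Leaving out single arrays gave 10 to 14 calls in the YAP, TEAD and SRF list. Both groups number their replicates alike, but same-numbered arrays did not deviate together (correlations of 0.09, -0.28 and -0.09 over genes), so the numbers do not pair them. The replicate block left 3397 genes called and changed no call among the 8. Precision is limited by 3 arrays a group, and for Postn also by low signal, since its HA-Fbxl10 level lies under the median of all genes.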

Other observations

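Several genes beside the matricellular genes changed far more than their surroundings, and were picked after their values were seen. Lama2, which encodes a laminin chain of basement membranes, is the sixth gene above the median level after Ccn2 on chromosome 10. It fell from 6.22, 6.38 and 6.74 to 4.53, 4.49 and 4.41, a difference of -1.97, while Ccn2 rose by 0.90 on the log2 scale. Kyat3, the tenth such gene before Ccn1, stood at -1.58.

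The CpG content of promoters was also read over all genes above the median level with a RefSeq window, taking the window with most CpGs per gene. Of 724 genes with at most 6 CpGs in 250 bases, 14.1% rose and 22.1% fell. Of 7336 genes with more, 19.7% rose and 17.3% fell. Postn, Thbs2 and Sparc belong to the first class and Tnc and Ccn1 to the second. This is a description over genes, which are not replicates, and was not tested.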
